A study of Mus musculus with 31 samples.

Results

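The genes described here encode collagens, laminins and other proteins of the extracellular matrix. They are a list of 40 genes, and 39 of them had a probe set annotated to them alone among the 18193 genes that the arrays cover in this way, while Fbn1 was not analysed here. The probe set with the highest mean in an experiment stands for a gene there, and it counts as measured where its highest sample reached a log2 level of 6.64, which is the base 2 logarithm of the minimum intensity of 100. By that rule 36 of the 39 genes were measured in mouse embryonic fibroblasts (MEFs), 10 in the Cdkn1a experiment on fetal liver hematopoietic stem cells (FL HSCs), and 5 each in the Crebbp and Ep300 experiments on FL HSCs. The share of all probe sets that reached the minimum also differed between the experiments, so these counts do not compare expression between them.

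Collagens are triple-helical proteins that form fibrils, sheets or anchoring filaments, and laminins are trimers of an alpha, a beta and a gamma chain. The basement membrane, a thin sheet under epithelia, endothelia and muscle, is built from type IV collagen and laminin networks that nidogens and the heparan sulfate proteoglycan perlecan join, whereas the loose matrix between fibroblasts holds fibrils of types I, III and V collagen with proteoglycans and fibronectin. Fibroblasts are the main producers of the fibrillar matrix, and in the fetal liver stem cells lie among stromal, endothelial and hepatic cells that make matrix of their own.

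The study asked how losing 1 allele of Crebbp or Ep300, the related acetyltransferases CBP and p300, alters expression in FL HSCs, and used MEFs and Cdkn1a null FL HSCs for comparison. All RNA came from embryos at 14.5 days post coitus and was read on 31 Affymetrix mouse genome arrays. FL HSCs were sorted as Sca-1+, Lin-, AA4.1+, c-Kit++ cells. In the Crebbp experiment 2 samples of Crebbp+/- and 2 of WT FL HSCs were each read on 2 arrays as technical replicates, and the Ep300 experiment had the same layout with Ep300+/- embryos, all on C57BL/6. Each FL HSC sample pooled 15 embryos, so the spread between embryos is not seen, and 12 ng of its RNA was amplified. The Cdkn1a experiment compared 4 Cdkn1a-/- with 3 Cdkn1a WT pools on a B6/129Sv background, where the nulls and the WT controls were bought as separate stocks, so stock and genotype cannot be told apart. The MEF experiment compared Crebbp+/- with Crebbp WT cultures on C57BL/6, 4 of each, and each culture came from 1 embryo, with 1 embryo of each genotype from each of 4 litters. The mutations are germline and are present in every cell of the embryo.

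The 4 experiments were normalized separately, so levels are compared only within an experiment. Between 11199 and 19522 probe sets per array reached the minimum. The median per array was 11338 in the Crebbp, 12202 in the Ep300 and 19398 in the Cdkn1a FL HSC experiment. It was 14521.5 in MEFs. Technical replicates correlated with r of 0.989 to 0.994 over the probe sets. Precision is limited by the number of samples, since arrays have no sequencing depth. The brightest probe set of Crebbp differed between Crebbp+/- and WT by 0.07 on the log2 scale in FL HSCs (SE 0.14, adjusted p = 0.803), so it did not separate the genotypes there. The dimmer Crebbp probe sets tested in FL HSCs differed by -0.42 (SE 0.16, unadjusted p = 0.0444, adjusted p = 0.196 from limma) and 0.01 (SE 0.17). In MEFs the brightest differed by -0.79 (SE 0.07, adjusted p = 0.417) and the dimmer ones by -0.60, -0.83 and -1.22. The single probe set of Ep300 differed by -0.10 in the Ep300 experiment (SE 0.10, adjusted p = 1.00) and was not called. The brighter probe set of Cdkn1a had levels of 7.66, 8.17 and 8.86 in the WT samples and 6.56, 6.34, 8.07 and 5.30 in the null samples. Its change was -1.66 (SE 0.64, adjusted p = 0.648), and the library labelled Cdkn1a-/- sample 3 lay within the WT range there. The dimmer probe set stayed below the minimum and was not tested, with means of 3.30 (SD 0.75) in WT and 2.21 (SD 0.04) in null samples. Whether the brighter probe set lies in the deleted part of the gene is not given in the sources used here. Without the library of Cdkn1a-/- sample 3, 0 members of the Cdkn1a experiment were called and their median change was -0.28, against -0.29 with it. The samples were therefore grouped by their labels alone.

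The labelled cell types were set against marker genes. All 8 stem cell markers with a probe set reached the minimum in every FL HSC group, and all 10 fibroblast and stromal markers did so in both MEF groups. In the MEFs 0 of 10 endothelial and 0 of 7 erythroid markers reached it, but 4 of 6 cartilage markers did. Of 10 macrophage markers 5 reached it in WT and 4 in Crebbp+/- cultures. In each MEF group 3 of 8 stem cell, 1 of 6 epithelial and 1 of 9 fetal hepatocyte markers also did. The cartilage collagen Col2a1 ranged from 10.06 to 13.70 over the 8 cultures and was lowest in the WT culture of litter 3. Cdkn1a WT sample 3 stood apart from all other FL HSC samples of its experiment: its mean level over 9 fetal hepatocyte markers was 12.69, against 4.55 and 4.83 in the other WT samples and 5.76 to 7.17 in the nulls, with Afp, which encodes alpha-fetoprotein, at 14.23 against 8.51 to 10.92 in the other 6 samples, and Dlk1 at 12.29 against 11.54 to 12.04. Its matrix results are given with and without that sample where they differ.

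Promoter windows are shown for the members that fell or were lower in Crebbp+/- FL HSCs, described next, and for Col6a3, which had the smallest p of the matrix genes in MEFs. RefSeq (GRCm38.p6) gave 32 windows of 250 bases before and 50 bases after the transcription start for 28 of the 40 genes, and Lamc1 was not among them. Col4a1 (chr8:11312777-11313076, - strand) and Col4a2 (chr8:11312555-11312854, + strand) are transcribed in opposite directions from starts 21 bases apart, and their windows share 78 bases. Col4a5 and Col4a6 form a like pair on the X chromosome with starts 1343 bases apart. Col18a1 had windows at chr10:77166481-77166780, - strand, printed here, and at chr10:77113656-77113955, - strand. Postn had windows at chr3:54360857-54361156, + strand, printed here, and at chr3:54359017-54359316, + strand. The window of Col6a3 is chr1:90843922-90844221, - strand. Capitals mark matches on either strand to the cAMP response element TGACGTCA, the AP-1 site TGANTCA, the CCAAT box, the GC box GGGCGG or the TATAAA box, and each window is written 5′ to 3′ on the strand of its gene.
Col4a1: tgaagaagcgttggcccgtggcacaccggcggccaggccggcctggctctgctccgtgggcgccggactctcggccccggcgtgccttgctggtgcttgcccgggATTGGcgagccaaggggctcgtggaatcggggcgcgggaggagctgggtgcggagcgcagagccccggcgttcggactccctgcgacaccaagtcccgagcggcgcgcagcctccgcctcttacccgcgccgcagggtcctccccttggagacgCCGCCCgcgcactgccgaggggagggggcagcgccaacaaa
Col4a2: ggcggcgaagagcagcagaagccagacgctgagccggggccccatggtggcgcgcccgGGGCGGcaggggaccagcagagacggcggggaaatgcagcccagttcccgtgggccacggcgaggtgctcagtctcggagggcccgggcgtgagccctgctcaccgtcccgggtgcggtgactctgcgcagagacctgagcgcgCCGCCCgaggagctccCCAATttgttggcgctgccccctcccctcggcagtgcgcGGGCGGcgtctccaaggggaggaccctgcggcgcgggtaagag
Col18a1: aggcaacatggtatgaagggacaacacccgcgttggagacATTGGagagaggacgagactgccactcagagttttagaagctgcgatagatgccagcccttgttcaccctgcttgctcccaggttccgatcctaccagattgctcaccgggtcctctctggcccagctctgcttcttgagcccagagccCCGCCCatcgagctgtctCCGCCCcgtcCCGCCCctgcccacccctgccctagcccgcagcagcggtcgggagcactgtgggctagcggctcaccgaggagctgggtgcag
Postn: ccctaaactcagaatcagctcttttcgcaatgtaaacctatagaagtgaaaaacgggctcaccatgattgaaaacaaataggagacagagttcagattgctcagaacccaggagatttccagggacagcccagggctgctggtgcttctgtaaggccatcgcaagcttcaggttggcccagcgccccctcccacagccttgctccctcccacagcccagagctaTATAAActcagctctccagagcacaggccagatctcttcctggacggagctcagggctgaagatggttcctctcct
Col6a3: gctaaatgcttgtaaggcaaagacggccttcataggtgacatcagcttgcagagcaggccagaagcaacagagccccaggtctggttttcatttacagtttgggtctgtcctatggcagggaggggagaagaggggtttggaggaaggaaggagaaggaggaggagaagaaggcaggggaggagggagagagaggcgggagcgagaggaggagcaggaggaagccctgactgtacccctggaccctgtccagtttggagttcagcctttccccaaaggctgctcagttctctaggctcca

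The windows of Col4a1 and Col4a2 had a GC content of 74.0% and 73.7%, against a median of 52.7% over all windows in the table, and held 37 and 33 CpG dinucleotides. Col4a2 had 3 matches to the GC box and 1 to the CCAAT box, and Col4a1 had 1 of each. The printed Col18a1 window had 3 matches to the GC box and 1 to the CCAAT box, the printed Postn window had 1 to TATAAA and the Col6a3 window had 0 of any. The other Postn window had 1 match to the CCAAT box and 0 to TATAAA, and the other Col18a1 window had 0 of any. The cAMP response element matched in 0 of the 32 windows, against 1.79% of all 32851 windows, and the GC box in 68.8%, against 35.7%. The AP-1 site matched in 3.12% against 7.81%, CCAAT in 34.4% against 37.4% and TATAAA in 6.25% against 13.6%. A match describes the letters of a window and is not evidence of binding.

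In Crebbp+/- FL HSCs the type IV collagen chain Col4a2 fell, and the other measured collagens and periostin were lower without passing the test. The measured members were the type IV collagen chains Col4a1 and Col4a2, the laminin gamma chain Lamc1, Col18a1, a basement membrane collagen whose cleaved end is endostatin, and Postn, which encodes periostin, a secreted protein that binds collagen and integrins. The other 34 were below the minimum in all 4 samples, and 26 of them never reached a log2 level of 3. None of the 7 fibrillar collagens was measured, with Col1a1 at 2.34 to 2.83 and Col3a1 at 2.34 to 2.39. Of those left out, Fn1, which encodes fibronectin, came closest with 5.75 and 6.56 in WT and 6.01 and 6.24 in Crebbp+/- samples. Fewer cells of a type and less RNA per cell cannot be told apart in these pools.

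Col4a2, which encodes the alpha 2 chain of the type IV collagen network, had levels of 7.87 and 8.19 in the WT samples and 6.55 and 6.86 in the Crebbp+/- samples. Both WT samples lay above both Crebbp+/- samples, and on single arrays the WT values of 7.76 to 8.32 did not overlap the Crebbp+/- values of 6.45 to 7.05. The log2 change was -1.32 (SE 0.11, adjusted p = 0.0486 from limma), with -1.32 and -1.33 in the 2 pairs of samples with the same number. A gene was called where its Benjamini-Hochberg adjusted p was under 0.05 and its fold change exceeded 1.5. Of the 13332 probe sets tested, 0.383% were called in either direction and 0.308% as lower. The study listed Col4a2 as lower in these same samples, so this is not independent evidence of its direction. The call was lost when only the 4 samples of this experiment were fitted (adjusted p = 0.105) and without the first pair (adjusted p = 0.0838) or the second (adjusted p = 0.117), with log2 changes of -1.32, -1.33 and -1.32, and over all alternatives its adjusted p ran from 0.00508 to 0.606.

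Col4a1, the alpha 1 chain that pairs with Col4a2 in the same trimer, had 6.86 and 7.55 in WT and 6.17 and 6.31 in Crebbp+/- samples. Its log2 change was -0.96 (SE 0.16, adjusted p = 0.0677), -0.69 in the first pair and -1.23 in the second. Col18a1 had 6.60 and 6.98 in WT and 5.43 and 6.20 in Crebbp+/- samples, a log2 change of -0.98 (SE 0.20, adjusted p = 0.0838). Its dimmer probe set changed by -0.81 (SE 0.10, adjusted p = 0.0513). Postn had 6.39 and 7.15 in WT and 5.55 and 6.09 in Crebbp+/- samples, a log2 change of -0.95 (SE 0.23, adjusted p = 0.104). For these 3 genes the WT and Crebbp+/- samples did not overlap, but how often this held over all probe sets was not counted. Every Crebbp+/- sample of these 3 genes was under the minimum, and the size of the difference then depends on the background. Col18a1 and Postn passed the level filter within the experiment only through WT samples, and so did Col4a1, so a count over the measured members describes them and tests nothing. Lamc1, the gamma 1 chain found in most laminins, had 7.55 and 6.21 in WT and 7.41 and 6.82 in Crebbp+/- samples, which overlap (log2 change 0.24, SE 0.21, adjusted p = 0.541). At an unadjusted p under 0.05, 4 of the 5 were lower, where 9.53% of all probe sets tested were, and 4 of 5 were lower in both pairs, where 26.0% of all were.

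**Figure D1:**
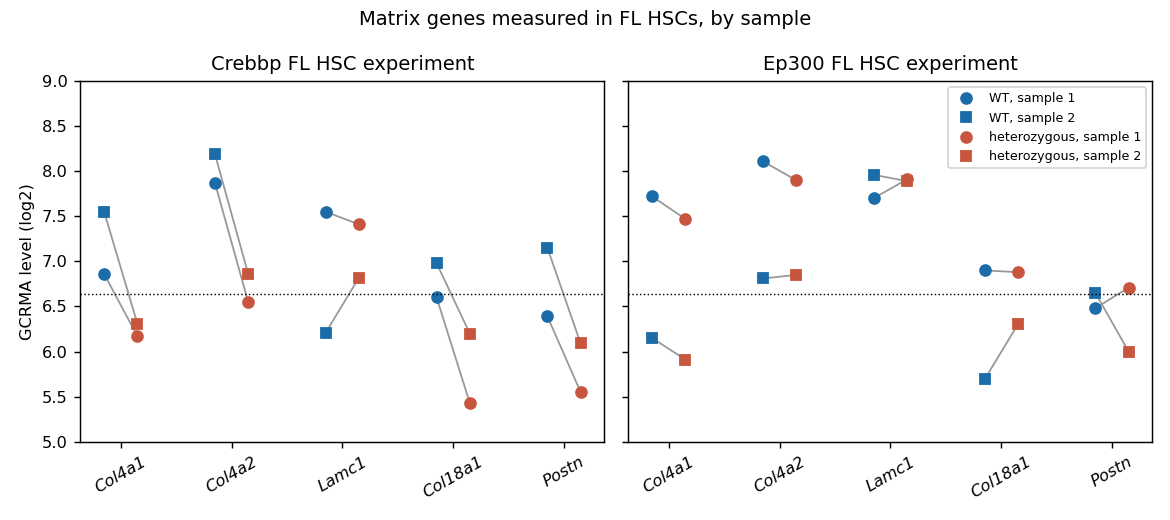
GCRMA levels (log2, y axis) of the 5 measured matrix genes (x axis) in the Crebbp (left) and Ep300 (right) FL HSC experiments, as the mean of 2 technical arrays per sample, with grey lines joining WT and heterozygous samples of the same number and a dotted line at the minimum of 6.64. Both Crebbp+/- samples lie below both WT samples for Col4a1, Col4a2, Col18a1 and Postn, while the groups overlap for all 5 genes in the Ep300 experiment. How often such a separation held over all probe sets was not counted.

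Markers of other cells were read beside these values, and their part in the result was not tested. Of 10 endothelial markers 4 were measured, their mean levels per sample were 4.88 to 4.97 in WT and 4.69 to 4.75 in Crebbp+/- samples, and the median change of the measured ones was -0.30 with 0 called. Of these 4, 3 were lower, with changes from -0.73 to 0.06. Tie1 had 8.23 and 7.97 in WT and 7.06 and 7.68 in Crebbp+/- samples. Tek had 9.29 and 8.88 in WT and 9.18 and 9.11 in Crebbp+/- samples. The endothelial markers Cdh5, Kdr, Cldn5, Lyve1 and Stab2 stayed under 3 in every sample. Fetal hepatocyte markers had means of 3.42 and 5.74 in the WT samples and 5.02 to 5.24 in Crebbp+/- samples, with a median change of 0.80 over 5 measured and 0 called. Of 10 fibroblast and stromal markers 1 was measured, and 8 stayed under 3 in every sample of both groups. Erythroid, muscle and cartilage markers had 0 measured.

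Other genes of the matrix pathway were read in the same fit, in which 0.383% of all probe sets tested were called. The collagen maturation list, of enzymes and chaperones that modify and fold collagen, had 5 of 24 genes measured, 0 called and a median change of 0.02, against 0.05 for all probe sets tested. Its genes with the smallest p were P4ha1, a prolyl hydroxylase subunit (0.50, SE 0.19, adjusted p = 0.210), and Adamts3, a procollagen protease (0.73, SE 0.52, adjusted p = 0.451). Their group means also lay below the minimum, at 6.08 and 6.58 for P4ha1 and 5.75 and 6.48 for Adamts3. Among 6 measured collagen and laminin receptors 0 were called, and the heparan sulfate receptor Sdc4 differed by 1.15 (SE 0.15, adjusted p = 0.0520), with group means of 5.43 and 6.59 that both lay below the minimum. Dag1, the dystroglycan that binds laminin, differed by -0.27 (SE 0.15, adjusted p = 0.344). Of 2 measured matricellular genes, Tgfbi differed by -0.32 (SE 0.11, unadjusted p = 0.0375, adjusted p = 0.180) and Ltbp3 by -0.14 (SE 0.19, adjusted p = 0.704). No matrix protease or inhibitor of the list was measured.

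In Ep300+/- FL HSCs the same 5 genes were measured and 0 were called, where 0% of all probe sets tested were called. Col4a2 had 8.11 and 6.81 in WT and 7.90 and 6.85 in Ep300+/- samples, so the samples numbered 1 were high and those numbered 2 low in both genotypes, and its log2 change was -0.08 (SE 0.11, adjusted p = 1.00). Col4a1 followed the same order with 7.72 and 6.15 in WT and 7.47 and 5.91 in Ep300+/- samples, a change of -0.25 (SE 0.16, adjusted p = 1.00). Lamc1 had 7.70 and 7.96 in WT and 7.91 and 7.89 in Ep300+/- samples and changed by 0.07 (SE 0.21, adjusted p = 1.00). Col18a1 changed by 0.29 (SE 0.20, adjusted p = 1.00) and Postn by -0.21 (SE 0.23, adjusted p = 1.00), with opposite signs in the 2 pairs for each. Their WT and Ep300+/- means lay below the minimum, at 6.30 and 6.59 for Col18a1 and 6.57 and 6.35 for Postn. Of the 5 genes 0 had an unadjusted p under 0.05, where 4.28% of all probe sets did. The median over the 5 was -0.08, against -0.02 over all probe sets tested. Of the pathway lists 0 genes were called, and Itgb1, the integrin beta 1 chain, had the smallest p with a change of -0.35 (SE 0.11, unadjusted p = 0.0292, adjusted p = 1.00). P4ha1 differed by 0.36 (SE 0.19, adjusted p = 1.00) and Tgfbi by 0.09 (SE 0.11, adjusted p = 1.00).

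The Crebbp and Ep300 effects were compared directly in the joint fit. The Crebbp effect minus the Ep300 effect was -1.24 for Col4a2 (SE 0.16, adjusted p = 0.149), -1.27 for Col18a1 (SE 0.28, adjusted p = 0.188), -0.72 for Col4a1 (SE 0.22, adjusted p = 0.266), -0.73 for Postn (SE 0.32, adjusted p = 0.371) and 0.16 for Lamc1 (SE 0.29, adjusted p = 0.837). Those of Col18a1, Col4a1 and Postn include group means below the minimum, so their size depends on the background. None of the 5 differences was called, where 0% of all probe sets were. At an unadjusted p under 0.05 there were 3 of 5, Col4a2, Col18a1 and Col4a1, where 15.2% of all probe sets were.

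In MEFs nearly the whole list was measured. Crebbp+/- cultures showed lower values of single members, led by decorin and Col6a3, with smaller differences in the fibrillar collagens of the list. Of the 36 measured genes 0 were called, where 0% of the 15502 probe sets tested were. The genes below the minimum were Col4a6 (highest culture 5.95), Lama2 (5.60) and Col15a1 (5.07). Of the 36, 32 were lower in Crebbp+/- cultures and 4 were higher, with a median log2 change of -0.11, while 42.1% of all probe sets tested were lower, with a median of 0.02. At an unadjusted p under 0.05, 8 members were lower and 0 higher, where 3.35% and 3.29% of all probe sets were. In all 4 litters 10 members were lower, where 6.25% of all probe sets were, and 0 were higher. The members share cultures, so these counts are a description. Where WT and Crebbp+/- cultures are said below not to overlap, how often this held over all probe sets was not counted. By litter the median over the 36 genes was -0.29, -0.07, -0.21 and -0.05. The fibroblast markers had per-culture means of 11.24 to 11.84 in WT and 11.27 to 11.63 in Crebbp+/- cultures, and their median change was -0.10 with 8 of 10 lower and 0 called.

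**Figure D2:**
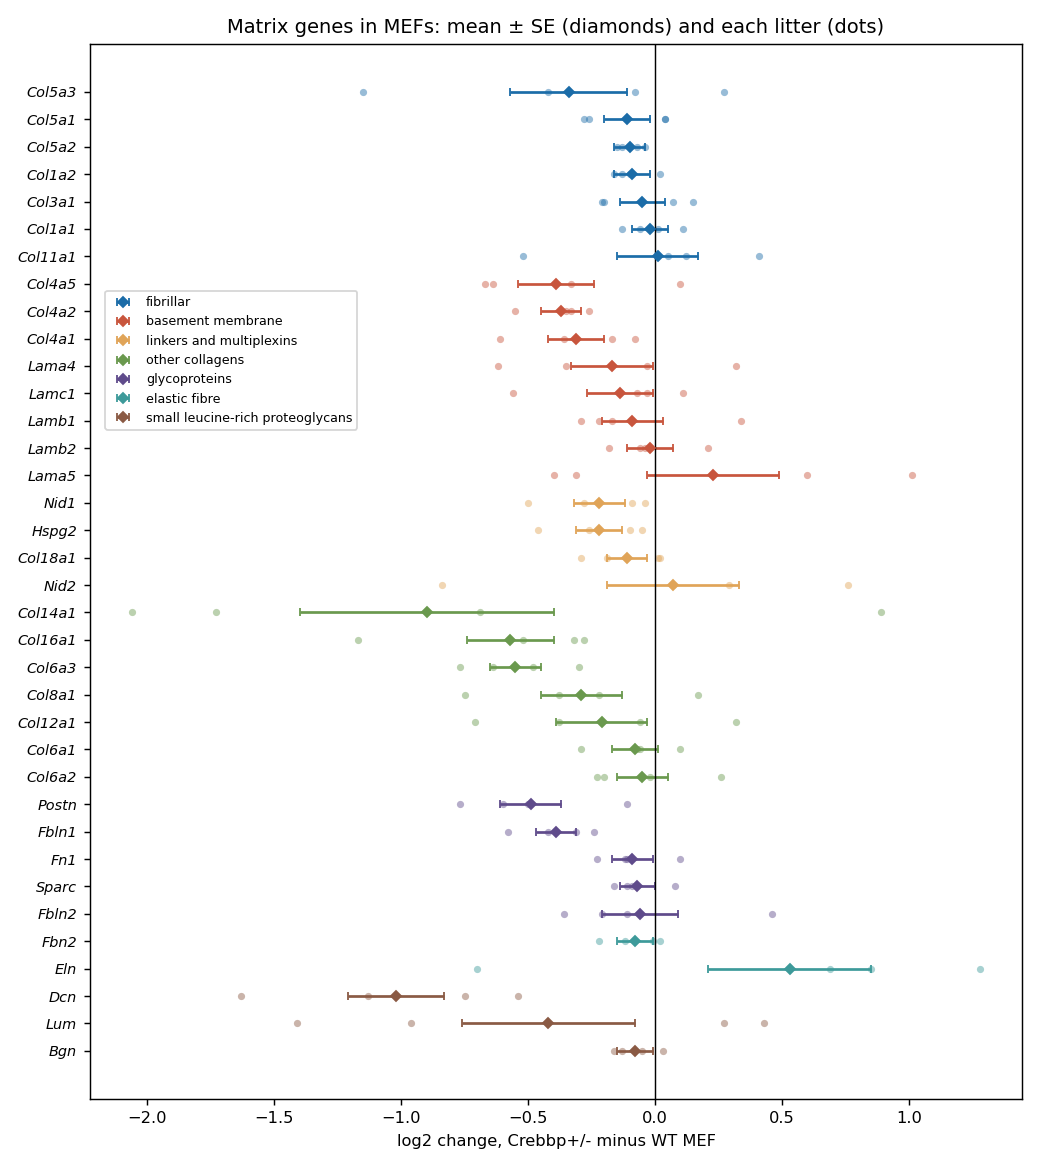
Log2 change of Crebbp+/- minus WT MEFs (x axis) for the 36 measured matrix genes (y axis, grouped by class), with diamonds and bars for the mean and its standard error from limma and dots for each of the 4 litters. Of the 36 genes 32 lie to the left of 0, Dcn has the lowest mean at -1.02, and the fibrillar collagens run from -0.34 to 0.01.

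The fibrillar collagens form the fibrils of the interstitial matrix, and all 7 on the list were measured. Their median change was -0.09, with 6 lower, 0 called and 0 at an unadjusted p under 0.05. Col2a1, a fibrillar collagen of cartilage outside the list, was read as a marker and was higher in Crebbp+/- cultures of litters 2 to 4. Col1a1, the alpha 1 chain of type I collagen, had 15.74, 15.64, 15.69 and 15.62 in the WT cultures of litters 1 to 4 and 15.62, 15.75, 15.63 and 15.63 in the Crebbp+/- cultures. The groups overlapped, and the change was -0.02 (SE 0.07, adjusted p = 0.968). Col1a2 changed by -0.09 (SE 0.07, adjusted p = 0.790) and Col3a1, the type III chain, by -0.05 (SE 0.09, adjusted p = 0.911), with a dimmer Col3a1 probe set at 0.02 (SE 0.16). The type V chains differed by -0.11 for Col5a1 (SE 0.09, adjusted p = 0.804) and -0.10 for Col5a2 (SE 0.06, adjusted p = 0.773). Col5a2 lay between 14.49 and 14.54 in WT and between 14.33 and 14.47 in Crebbp+/- cultures, with no overlap and a difference in each litter of at most 0.15 in size. Col5a3, the dimmest type V chain, had the largest change of the class at -0.34 (SE 0.23, adjusted p = 0.781), from 0.27 in litter 1 to -1.15 in litter 4. Col11a1, the type XI chain of cartilage fibrils, differed by 0.01 (SE 0.16, adjusted p = 0.990).

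Of the 10 basement membrane chains 8 were measured in MEFs, with a median change of -0.15, 7 lower and 0 called. The median of this class minus that of the fibrillar class was -0.06, and it was 0.05 without litter 1, so its direction depended on 1 litter. Its 3 members with an unadjusted p under 0.05 were the 3 measured type IV chains. Col4a2 had 11.56, 11.92, 12.00 and 12.04 in WT and 11.23, 11.66, 11.45 and 11.69 in Crebbp+/- cultures. It was lower in 4 of 4 litters although the groups overlapped, with a change of -0.37 (SE 0.08, unadjusted p = 0.00374, adjusted p = 0.553). Col4a1 had 12.60, 13.37, 13.42 and 13.36 in WT and 12.52, 13.20, 12.81 and 13.00 in Crebbp+/- cultures, so litter 1 was low in both genotypes. Its change was -0.31 (SE 0.11, unadjusted p = 0.0317, adjusted p = 0.714), -0.20 without litter 3, and -0.41 (SE 0.09) at its dimmer probe set. Col4a5, a chain encoded on the X chromosome, had 11.01, 10.44, 10.59 and 10.68 in WT and 10.34, 9.80, 10.25 and 10.78 in Crebbp+/- cultures. It changed by -0.39 (SE 0.15, unadjusted p = 0.0422, adjusted p = 0.726) and was lower in 3 of 4 litters. Among the laminins, the alpha chains Lama4 and Lama5 differed by -0.17 (SE 0.16) and 0.23 (SE 0.26), the beta chains Lamb1 and Lamb2 by -0.09 (SE 0.12) and -0.02 (SE 0.09), and Lamc1 by -0.14 (SE 0.13). Adjusted p-values of these laminins ran from 0.820 to 0.978. Lama5 was lower in litters 1 and 2 and higher in litters 3 and 4, by up to 1.01.

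Of the genes that join or decorate the basement membrane 4 were measured, with 0 called. Nid1, a nidogen that bridges laminin and type IV collagen, and Hspg2, which encodes perlecan, each changed by -0.22 (SE 0.10 and 0.09, adjusted p = 0.753 and 0.750) and were lower in 4 of 4 litters. Their dimmer probe sets differed by -0.28 (SE 0.09, unadjusted p = 0.0186, adjusted p = 0.658) for Nid1 and -0.35 (SE 0.08, unadjusted p = 0.00640, adjusted p = 0.564) for Hspg2. The other nidogen, Nid2, differed by 0.07 (SE 0.26), with litters running from -0.84 to 0.76. Col18a1 differed by -0.11 (SE 0.08, adjusted p = 0.789).

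Of the other collagens all 7 measured genes were lower, with a median of -0.29 and 0 called. Col6a3, the large alpha 3 chain of the microfibrillar type VI collagen, had 13.35, 13.11, 13.28 and 13.03 in WT and 12.58, 12.81, 12.64 and 12.56 in Crebbp+/- cultures. Every WT culture lay above every Crebbp+/- culture, and the change was -0.55 (SE 0.10, unadjusted p = 0.00186, adjusted p = 0.505). The chains it assembles with, Col6a1 and Col6a2, differed by -0.08 (SE 0.09) and -0.05 (SE 0.10). Col16a1, a collagen that associates with fibrils, had 10.58, 9.89, 9.96 and 9.77 in WT and 9.41 to 9.57 in Crebbp+/- cultures, with no overlap and a change of -0.57 (SE 0.17, unadjusted p = 0.0157, adjusted p = 0.645). Its difference was largest in litter 1, at -1.17, and the change was -0.37 without that litter. Col14a1 differed by -0.90 (SE 0.50, adjusted p = 0.760) with litters from -2.06 to 0.89, Col8a1 by -0.29 (SE 0.16) and Col12a1 by -0.21 (SE 0.18). The mean of Col14a1 was 6.95 in WT and 6.05 in Crebbp+/- cultures, the latter under the minimum, so the size of its difference depends on the background.

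Decorin and lumican are small leucine-rich proteoglycans that bind collagen fibrils. Dcn had 11.46, 10.63, 11.73 and 10.74 in WT and 10.33, 10.08, 10.10 and 9.98 in Crebbp+/- cultures. The Crebbp+/- cultures lay within 0.35 of each other and below every WT culture, and the change of -1.02 (SE 0.19, unadjusted p = 0.00227, adjusted p = 0.505) was the largest in size of the 36 members. The WT spread was wider, with an SD of 0.54 against 0.15. Lum differed by -0.42 (SE 0.34, adjusted p = 0.804), with -1.41 in litter 1 and 0.43 in litter 4, and Bgn, which encodes biglycan, by -0.08 (SE 0.07).

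Among the glycoproteins, Postn had 13.97, 14.37, 14.66 and 14.22 in WT and 13.48, 14.26, 14.06 and 13.45 in Crebbp+/- cultures. It was lower in 4 of 4 litters with overlapping groups, and its change was -0.49 (SE 0.12, unadjusted p = 0.00797, adjusted p = 0.609). Fbln1, a fibulin that binds fibronectin and elastic fibres, had 9.91, 10.23, 10.46 and 9.59 in WT and 9.49, 9.92, 9.88 and 9.35 in Crebbp+/- cultures, a change of -0.39 (SE 0.08, unadjusted p = 0.00423, adjusted p = 0.553). Its dimmer probe set changed by -0.44 (SE 0.13). Fn1 differed by -0.09 (SE 0.08), Sparc, a collagen-binding protein, by -0.07 (SE 0.07) and Fbln2 by -0.06 (SE 0.15). Of the elastic fibre genes, Eln, which encodes elastin, had 11.74, 11.81, 12.52 and 11.50 in WT and 12.59, 13.09, 11.82 and 12.18 in Crebbp+/- cultures, so it was higher in 3 litters and lower in litter 3 (change 0.53, SE 0.32, adjusted p = 0.764). Fbn2, a fibrillin of the developing microfibril, differed by -0.08 (SE 0.07).

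**Figure D3:**
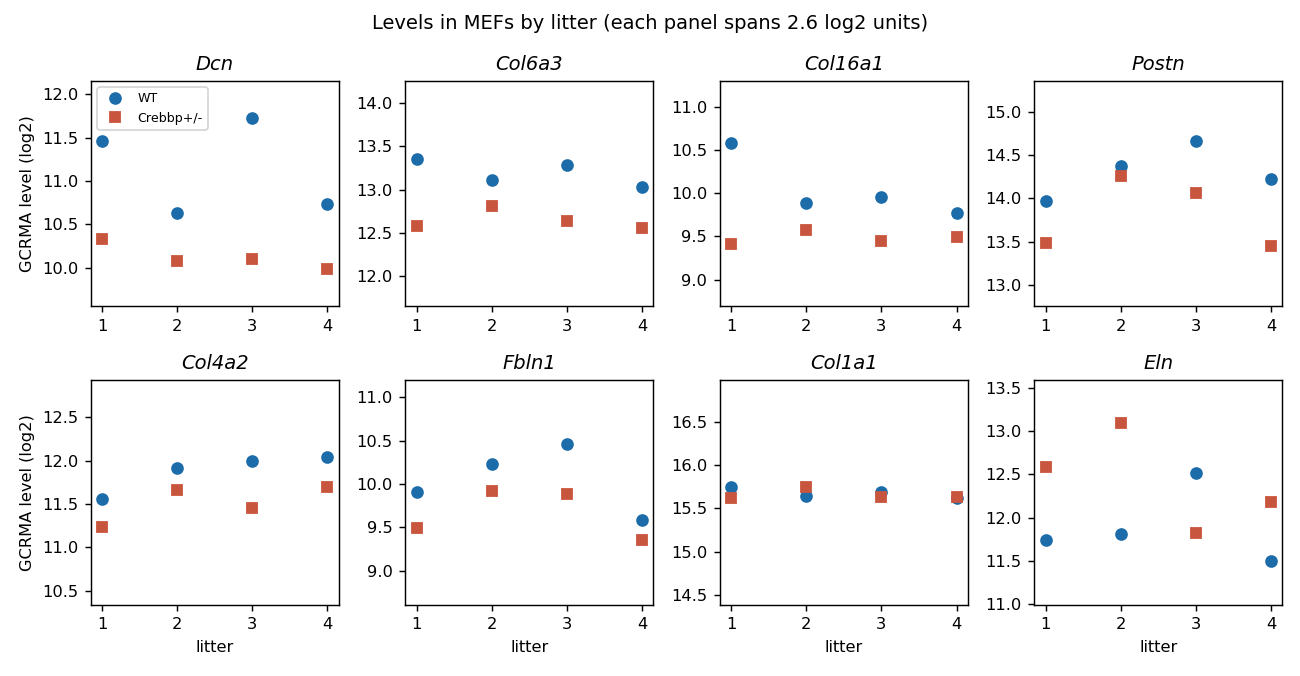
GCRMA levels (log2, y axis, the same span in each panel) of 8 matrix genes in the 4 WT (circles) and 4 Crebbp+/- (squares) MEF cultures by litter (x axis). Dcn, Col6a3 and Col16a1 are lower in every Crebbp+/- culture than in any WT culture, Postn, Col4a2 and Fbln1 are lower within each litter, Col1a1 stays between 15.62 and 15.75, and Eln is higher in Crebbp+/- cultures of all litters but litter 3.

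Levels of several members differed between litters, although no litter effect was called. Litter effects of the same fit gave 0 called members, where 0% of all probe sets were called, and 11 members at an unadjusted p under 0.05, where 8.52% of all probe sets were. The smallest were Col6a1 (range of 0.76 between the highest and lowest litter mean, unadjusted p = 0.00380) and Fbln1 (0.70, unadjusted p = 0.00425), each with an adjusted p of 0.562. The median range over the members was 0.47, against 0.27 over all probe sets tested. Ranges were smallest for the bright fibrillar collagens Col3a1 (0.06) and Col1a1 (0.07) and largest for Col14a1 (1.49), Col5a3 (1.24), Lama5 (1.20) and Lum (1.16), the 4 members over 1. Col14a1 lay near the minimum, with litter means from 5.52 to 7.01. Litter 4 had the lowest mean for 12 of the 36 members (33.3%, against 19.4% of all probe sets tested), among them Col1a1, Lamb1 and Fbln1, and litter 3 the highest for 12 (33.3% against 26.5%), among them Col6a1, Postn and Dcn. Litter 1 was lowest for 9 (25% against 34.2%), among them Col4a1, Col4a2 and Col5a3, and highest for 7 (19.4% against 25.1%), among them Lum, Col11a1 and Lamb2. The WT culture of litter 1 also had the highest cartilage marker mean, 8.37 against a WT median of 6.66, and the cartilage markers ran from 6.87 to 7.93 in Crebbp+/- cultures with changes of -0.34 to 1.16 over 4 measured, a median of 0.20 and 0 called. Col2a1 had 13.31, 10.86, 10.06 and 11.94 in WT and 13.25, 11.99, 11.88 and 13.70 in Crebbp+/- cultures, higher in litters 2 to 4. Of 8 muscle markers 1 was measured, Actc1, with 5.32 to 5.94 in WT and 6.25 to 7.61 in Crebbp+/- cultures. It was higher in every litter with no overlap, by 1.32 and not called. How often either held over all probe sets was not counted. Every WT culture and the Crebbp+/- cultures of litters 2 and 3 were below the minimum for Actc1. Actc1 thus passed the level filter only through Crebbp+/- cultures, and the size of its difference depends on the background. The part of cartilage and muscle cells in the matrix values was not tested.

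The pathway lists were read in the same fit, and 0 of their genes were called, where 0% of all probe sets tested were. Over all probe sets tested 42.1% were lower, with a median of 0.02. At an unadjusted p under 0.05, 3.35% of them were lower and 3.29% higher. Of 17 measured matrix proteases and inhibitors 14 were lower, with a median of -0.23 and 7 lower at an unadjusted p under 0.05. The aggrecan-cleaving protease Adamts5 differed by -0.49 (SE 0.07, unadjusted p = 0.000594, adjusted p = 0.465), and Mmp11, a stromal metalloproteinase, by -0.30 (SE 0.08, unadjusted p = 0.0109, adjusted p = 0.630). Of 19 measured collagen maturation genes 11 were lower, with a median of -0.01. Bmp1, the procollagen C-proteinase, differed by -0.31 (SE 0.10, unadjusted p = 0.0231) and the lysyl hydroxylase Plod1 by -0.22 (SE 0.10, unadjusted p = 0.0674). Among 13 measured receptors the median was 0.00. The collagen receptor kinase Ddr2 differed by -0.51 (SE 0.10, unadjusted p = 0.00316, adjusted p = 0.542), lower in 4 of 4 litters, and the integrin chain Itga1 by 0.41 (SE 0.10, unadjusted p = 0.00736, adjusted p = 0.601), higher in 4 of 4. Of 22 measured matricellular genes 13 were lower and 9 higher, with a median of -0.02. Ccn5 was higher by 0.74 (SE 0.09, unadjusted p = 0.000312, adjusted p = 0.417), and Ltbp2, a fibrillin-binding protein, by 0.42 (SE 0.09, unadjusted p = 0.00539, adjusted p = 0.562).

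For the 5 genes measured in both cell types the Crebbp effect in MEFs was set against that in FL HSCs. For Col4a2 the effect was -0.37 in MEFs and -1.32 in FL HSCs, and the difference of 0.95 (SE 0.13, adjusted p = 0.0449 from limma) was called, where 0.751% of the 10248 probe sets tested in both were. That call was lost without the second Crebbp pair (adjusted p = 0.128) and without the MEFs of litter 2 (adjusted p = 0.119), litter 3 (adjusted p = 0.119) or litter 4 (adjusted p = 0.0935), with differences of 0.94, 0.91, 1.01 and 0.94, and its adjusted p over all alternatives ran from 0.0171 to 0.763. At the probe set that represents Col18a1 in FL HSCs the difference was 0.83 (SE 0.19, adjusted p = 0.0806). It was 0.66 for Col4a1 (SE 0.19, adjusted p = 0.144), 0.45 for Postn (SE 0.26, adjusted p = 0.424) and -0.37 for Lamc1 (SE 0.25, adjusted p = 0.495). The level of the genes and the cell type differ together here and cannot be told apart, and the labels and the study's methods differ on whether MEF RNA was amplified like that of the FL HSCs.

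**Figure D4:**
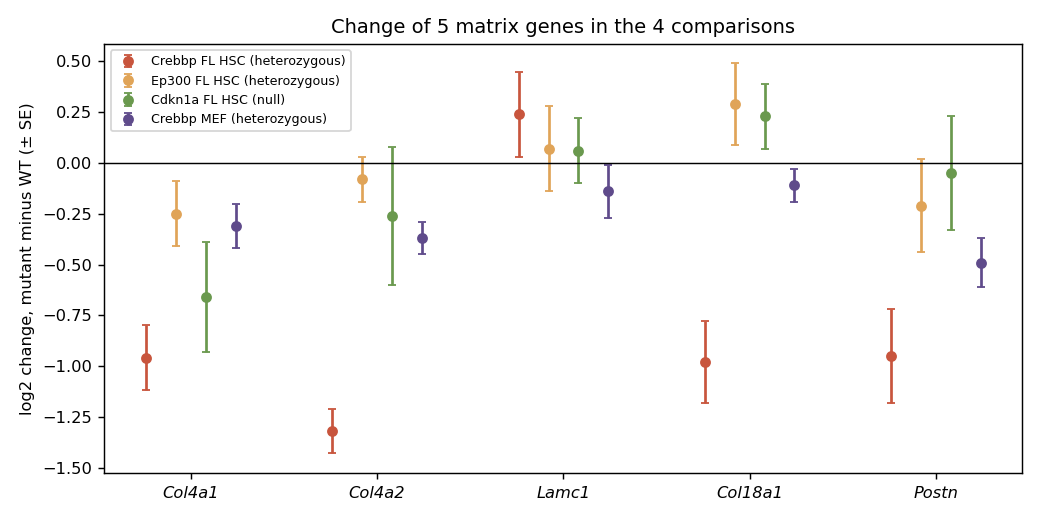
Log2 change of mutant minus WT (y axis, points with standard errors from limma) of the 5 matrix genes measured in every experiment (x axis) in the 3 FL HSC comparisons and the MEF comparison (colours), at the brightest probe set of each experiment. Col4a2 lies at -1.32 in Crebbp+/- FL HSCs and at -0.08, -0.26 and -0.37 in the other comparisons.

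In the Cdkn1a experiment 10 genes were measured and 0 were called, where 0.405% of the 20962 probe sets tested were called. Of the 29 others 26 never reached a log2 level of 3, and the 7 fibrillar collagens were again below the minimum. At an unadjusted p under 0.05 there was 1 of the 10, where 7.29% of all probe sets were. It was Col4a1, which had 10.79, 9.71 and 9.97 in WT and 9.71, 9.36, 9.68 and 9.25 in Cdkn1a-/- samples, a change of -0.66 (SE 0.27, unadjusted p = 0.0491, adjusted p = 0.683) that rested most on WT sample 1, without which it was -0.34. Col4a2 had 11.62, 10.50 and 10.10 in WT and 10.38 to 10.56 in Cdkn1a-/- samples (change -0.26, SE 0.34, adjusted p = 0.810), and without WT sample 3 its change was -0.58 (SE 0.30, adjusted p = 0.925). Lamb2, a laminin beta chain, differed by -0.31 (SE 0.38) and by -0.36 without that sample, and Lamc1 by 0.06 (SE 0.16) and, with the sign turned, by -0.06. Col18a1 differed by 0.23 (SE 0.16), Sparc by 0.35 (SE 0.33), Postn by -0.05 (SE 0.28) and Fbln1 by -0.48 (SE 0.33), with adjusted p-values of 0.720 to 0.961 over these 4, and a dimmer Fbln1 probe set had the opposite sign at 0.26 (SE 0.19). Without WT sample 3 these 4 differed by 0.10 (SE 0.16), 0.65 (SE 0.30), -0.35 (SE 0.20) and -0.20 (SE 0.31), with adjusted p-values of 0.889 to 0.999, and Col4a1 by -0.75 (SE 0.32, adjusted p = 0.834).

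Fn1 and Nid1 were high in Cdkn1a WT sample 3, the sample with hepatocyte markers. Fn1 was 11.00 there and 8.62 to 9.45 in the other 6 samples, and its change of -0.96 (SE 0.47, adjusted p = 0.715) became -0.35 (SE 0.18, adjusted p = 0.925) without that sample. Nid1 was 6.80 there and 3.79 to 5.93 in the others, the only sample in which it reached the minimum, and its change of -1.51 (SE 0.66, adjusted p = 0.691) became -0.87 (SE 0.57, adjusted p = 0.986). Without WT sample 2, in contrast, Nid1 was called at -2.37 (SE 0.26, adjusted p = 0.0373), a fit in which sample 3 is 1 of 2 WT samples. Col4a2, Lamc1, Col18a1 and Postn were lower in sample 3 than in any other sample. That sample also had the highest macrophage and erythroid marker means, 8.26 and 8.58, against 3.61 to 3.87 and 2.38 to 2.80 in the others, and the part of these cells in its matrix values was not tested. Without it 0 of the 10 members were called.

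**Figure D5:**
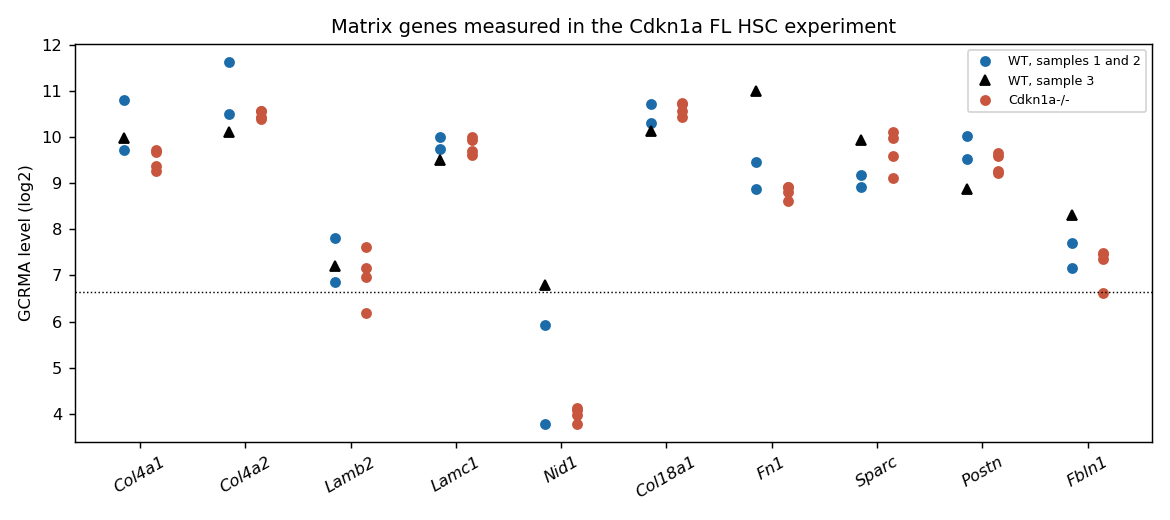
GCRMA levels (log2, y axis) of the 10 matrix genes measured in the Cdkn1a FL HSC experiment (x axis) in WT samples 1 and 2 (blue), WT sample 3 (black triangles) and 4 Cdkn1a-/- samples (red), with a dotted line at the minimum of 6.64. WT sample 3 is highest for Fn1 at 11.00, Nid1 at 6.80 and Fbln1 at 8.30, and lowest for Col4a2 at 10.10 and Postn at 8.87.

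The pathway lists of the Cdkn1a experiment also had 0 called genes, where 0.405% of all probe sets tested were called. The laminin receptor chain Itga6 differed by -0.58 (SE 0.17, unadjusted p = 0.0130, adjusted p = 0.472), the hyaluronan receptor Cd44 by -0.22 (SE 0.08, unadjusted p = 0.0246, adjusted p = 0.579) and the protease inhibitor Timp2 by -0.90 (SE 0.33, unadjusted p = 0.0304, adjusted p = 0.624). Ccn3, a matricellular protein, differed by 1.21 (SE 0.35, unadjusted p = 0.0122, adjusted p = 0.451) and Tgfbi by -0.93 (SE 0.43, adjusted p = 0.705). Mmp2, a gelatinase, differed by 0.48 (SE 0.25, adjusted p = 0.717). The lysyl hydroxylase Plod2 differed by 0.66 (SE 0.28, adjusted p = 0.686) and Bmp1 by -0.74 (SE 0.33, adjusted p = 0.695). For Mmp2, Plod2 and Bmp1 both group means lay below the minimum. Without WT sample 3 the changes were -0.44 for Itga6, -0.24 for Cd44, -0.69 for Timp2, 0.98 for Ccn3, -0.42 for Tgfbi, 0.42 for Mmp2, 0.44 for Plod2 and -0.71 for Bmp1, with adjusted p-values of 0.548 to 0.999 and 0 called.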

How the data were processed

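The deposited log2 values are GCRMA output of the authors, with a background correction that uses probe sequence, quantile normalization and 1 value per probe set, run for each experiment on its own. Its version is not given in the sources used here. Presence calls were not used here. From these values, 64 control probe sets of 45101 were left out, technical replicates were averaged as log2 values, and a probe set was tested if any sample reached log2(100), in R 4.3.3 with limma 3.58.1. The Crebbp and Ep300 FL HSC samples were fitted jointly with a block per pair of the same sample number, MEFs with a block per litter and Cdkn1a samples unpaired. Samples of the same number deviated together with r of 0.71 (Crebbp) and 0.38 (Ep300), and the labels give the litters. In MEFs r was 0.28, 0.46, 0.40 and 0.19 for cultures of the same number. Some MEF cultures of different numbers had a higher r, up to 0.59. The p-values of the fits with a block measure the spread of differences within pairs or litters, not the spread between pools or cultures. The Crebbp and Ep300 FL HSC comparisons share an estimate of that spread. For Cdkn1a they measure the spread between pools. A call is an adjusted p under 0.05 with a fold change over 1.5.

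The members and lists were chosen with earlier results of these data known. Every member could be named. Described in full are members called, at an unadjusted p under 0.05 or with the largest change in the basement membrane and fibrillar classes, the pathway genes with the smallest p in each list, and the inactivated genes. A few other members and pathway genes were named after their values were seen. Gene names came from the platform's annotation (34945 probe sets with 1 gene, 932 with several, 9160 with none). Fits were tested on simulated data, and alternatives covered the block, filters, scaling, spread, probe set average, technical arrays, left-out samples and the methods' t-test.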

Additional observations from a re-analysis of the deposited data

Results flagged for a closer look

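In groups of 4 samples, a value is listed where its gap to the nearest other sample is a large share of the group's range. Of 82 groups of matrix genes 9 had such a value, and chance gives about 1 in 20 groups. In WT MEFs, Col4a1 was 12.60 in the culture of litter 1 against 13.36 to 13.42 in the others, Sparc was 15.26 there against 15.10 to 15.12, Col5a2 was 14.54 in litter 2 against 14.49, and Fbn2 was 13.64 in litter 3 against 13.35 to 13.40. In Crebbp+/- MEFs, Fbln2 was 13.30 in litter 1 against 13.63. The culture of litter 2 was high for Col1a1 (15.75 against 15.62 to 15.63), Col1a2 (14.96 against 14.78 to 14.79) and Bgn (14.30 against 14.13 to 14.15). In Cdkn1a-/- FL HSCs, Fbln1 was 6.61 in sample 3 against 7.36 to 7.49. The Crebbp effect on Col4a2 differed between MEFs and FL HSCs by 0.95, a tested difference.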

How the results depend on the processing

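The Crebbp FL HSC test called 51 probe sets and 1 member, Col4a2, and with no replicate block (no pairs), with no level filter, with technical array 1 or 2 alone, with the samples of the experiment alone and without either pair (0 to 0) it called 0 of both, with Col4a2 between -1.38 and -1.27. It called 625 probe sets and 3 members with an interquartile range of at least 0.5, 877 and 3 with a trended, robust spread, 208 after centring arrays, and 199 by the methods' t-test, where Col4a2 passed without adjustment. The members added were Col4a1 and Col18a1. The median over the members was -0.80 with technical array 2 and -1.06 to -0.83 without a pair.

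The Ep300 member median was 0.04 with technical array 1 and -0.07 to -0.03 without a pair, and the methods' t-test passed 11 probe sets. With no level filter the member median was 0.00 in each FL HSC experiment, since that counts members at background.

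Cdkn1a probe set calls fell from 85 to 6 with a replicate block on numbers 1 to 3, were 42 with no level filter, 548 by the methods' t-test and 38 to 90 without 1 sample. Member calls were 0 to 1 without 1 sample, the member median was -0.44 to 0.07 without 1 sample, -0.14 with the replicate block and -0.19 over the mean of a gene's probe sets. The numbers of the Cdkn1a samples pair nothing by design.

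MEF calls were 2 probe sets with no replicate block and 0 to 0 without a litter. The methods' t-test passed 61 probe sets (0 after adjustment) and 1 of 10 members left by its filters, Dcn (-1.02). With the interquartile range filter and with that test the member median was -0.32 and the basement membrane minus fibrillar median 0.33, over the 10 members left, and without 1 litter they were -0.17 to -0.08 and -0.15 to 0.05. Litter calls were 0 to 0.

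The Crebbp minus Ep300 difference had 62 probe sets called with a trended, robust spread and 0 to 0 without a pair. The MEF minus FL HSC difference had 77 probe sets and 1 member, Col4a2, and 1 and 0 with no replicate block (0.95, adjusted p = 0.763), 468 with no level filter, 130 with the interquartile range filter, and 0 to 208 probe sets and 0 to 1 member without a pair or litter. The 15 member results followed through the alternatives kept their sign in each, while Lamc1 in the Cdkn1a experiment, not among them, turned from 0.06 to -0.06 without WT sample 3. The cause of these shifts was not tested.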
